A study of Mus musculus with 8 samples.

Results

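The genes described here encode the nuclear part of the mitochondrial respiratory chain, and the data are peak lists of open chromatin in MIN6, an established cell line from a mouse insulinoma that serves as a beta cell model. A gene was taken when the GRCm38.p6 table of RefSeq lists it as protein-coding and its symbol starts with Nduf, Uqcr, Cox4, Cox5, Cox6, Cox7 or Cox8, or is Sdha, Sdhb, Sdhc, Sdhd or Cycs. This gave 80 of the 21883 protein-coding genes on the main chromosomes, with no use of any measured value. They fall into 41 complex I genes, 8 complex I assembly factors of the Ndufaf series, 4 complex II genes, 8 complex III genes, 18 complex IV genes and the cytochrome c gene. The grouping follows the symbol, so Ndufa4, whose product is known as a subunit of complex IV, and its relative Ndufa4l2 are counted with complex I.

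Accessibility was measured by ATAC-seq, in which a transposase inserts sequencing adapters where DNA is accessible. The 8 libraries came from wild-type MIN6 cells transfected for 48 hours. In 4 the plasmid was the empty vector pcDNA 3 and in 4 it was pGloMyc-Klf4, which carries Klf4, a zinc finger factor known to bind GC-rich DNA and CACCC boxes. The plasmids thus differ in backbone name as well as in the insert, cells of both groups went through lipid transfection, and untransfected cells were not analysed here. The share of cells that took up a plasmid is not given in the sources used here, and a change in fewer cells cannot be told apart from a smaller change in all cells. The values come from 1 merged peak list for each plasmid, 100099 peaks over 65.96 Mb for the empty vector and 128538 peaks over 84.2 Mb for Klf4. There is 1 value per gene and plasmid, so no difference given here could be set against a spread between libraries and no test between the groups was made. The read depth behind the lists is unknown.

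The respiratory chain carries electrons from NADH and succinate to oxygen. Complex I oxidises NADH, complex II oxidises succinate as part of the citric acid cycle, complex III passes the electrons to cytochrome c and complex IV hands them to oxygen, and the proton gradient that results drives the ATP synthase. In beta cells the ATP made this way closes potassium channels when glucose rises, which leads to insulin release. Most subunits are needed in every cell with mitochondria, and their genes are textbook targets of the factors NRF1 and GABP (an ETS factor), but some complex IV subunits have isoforms known mainly from muscle, lung or testis.

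The labelled cell type was checked on genes that define beta cells. Of the 8 beta cell markers, 5 had an annotated start in the promoter table, and all 5 had a peak over it in both lists. All 8 had a peak within 1 kb of a gene end. Of the markers of other cells, none of the 2 exocrine, 2 fibroblast, 3 leukocyte and 3 muscle genes with an annotated start had a peak over it in the empty vector list, nor did Sst and Ppy of the other islet hormones. Gcg, the glucagon gene of alpha cells, did have a start peak in both lists, with −log10 q 18.8 and 14.2. In the Klf4 list Ckm and Myh6 (muscle) and Cd79a (leukocyte) had a start peak, with −log10 q of 11.5, 14.005 and 2.18. Covered length, defined further on, was more than 1.5-fold higher with Klf4 at 3 of 3 muscle, 2 of 2 endothelium, 1 of 3 exocrine, 1 of 3 leukocyte and 1 of 3 fibroblast markers, and at 0 of 8 beta cell and 0 of 3 islet hormone markers, beside 19.7% of all genes. Here −log10 q is the negative logarithm of the false discovery rate that the authors' peak caller gave a peak, so that higher is surer.

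The sequences around the starts are shown first, since the peaks below centre on them. The promoter table of RefSeq (GRCm38.p6) gives 250 bases before to 50 after an annotated start, and 64 of the 80 genes have an entry (66 windows, with 2 each at Ndufa5 and Ndufa7). Genes with no entry include Ndufa2, Ndufa4l2, Ndufb4c, Ndufb9, Ndufs1, Ndufaf6, Sdhc, Uqcrb, Uqcrc2, Uqcrq, Cox4i1, Cox4i2, Cox6a2, Cox6c and Cox8c. Ndufa6, Ndufa11 and Uqcrc1 are the genes with the strongest start peaks of the empty vector list among those whose window holds the letters of the NRF1 site. Sdha was added for its 3 NRF1 matches and Ndufs6 for holding both NRF1 and YY1 letters, both chosen after their values were seen. In these 5, capitals mark the NRF1 site and the letters of ETS (CCGGAAG) and YY1 (AAGATGG) sites on either strand, and YY1 was added to the capitals after a first version with NRF1 and ETS had been looked at. They lie at chr15:82354242-82354541 (minus strand), chr17:56717512-56717811 (plus), chr9:108936398-108936697 (plus), chr13:74350191-74350490 (minus) and chr13:73328433-73328732 (minus), in the order shown.
Ndufa6: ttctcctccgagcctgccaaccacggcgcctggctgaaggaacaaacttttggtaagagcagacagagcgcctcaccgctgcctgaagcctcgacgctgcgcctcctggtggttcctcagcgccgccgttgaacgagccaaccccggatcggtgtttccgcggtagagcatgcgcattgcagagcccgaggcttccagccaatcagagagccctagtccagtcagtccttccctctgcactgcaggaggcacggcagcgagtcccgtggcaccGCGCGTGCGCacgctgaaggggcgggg
Ndufa11: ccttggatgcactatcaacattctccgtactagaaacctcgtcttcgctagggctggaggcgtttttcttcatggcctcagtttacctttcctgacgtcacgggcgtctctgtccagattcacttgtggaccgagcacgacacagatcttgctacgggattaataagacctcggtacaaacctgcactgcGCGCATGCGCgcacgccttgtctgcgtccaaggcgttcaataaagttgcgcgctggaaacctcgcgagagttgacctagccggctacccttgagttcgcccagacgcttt
Uqcrc1: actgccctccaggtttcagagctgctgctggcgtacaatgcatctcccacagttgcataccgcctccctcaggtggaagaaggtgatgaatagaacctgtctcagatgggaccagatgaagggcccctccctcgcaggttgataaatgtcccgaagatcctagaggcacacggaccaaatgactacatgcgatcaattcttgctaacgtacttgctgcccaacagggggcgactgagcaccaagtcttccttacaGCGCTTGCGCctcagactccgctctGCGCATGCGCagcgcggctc
Sdha: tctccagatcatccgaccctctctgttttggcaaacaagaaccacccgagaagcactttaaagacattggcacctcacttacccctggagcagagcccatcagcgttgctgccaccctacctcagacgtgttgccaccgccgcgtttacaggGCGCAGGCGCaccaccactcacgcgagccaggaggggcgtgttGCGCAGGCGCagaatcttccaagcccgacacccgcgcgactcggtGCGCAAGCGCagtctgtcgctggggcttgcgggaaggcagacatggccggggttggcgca
Ndufs6: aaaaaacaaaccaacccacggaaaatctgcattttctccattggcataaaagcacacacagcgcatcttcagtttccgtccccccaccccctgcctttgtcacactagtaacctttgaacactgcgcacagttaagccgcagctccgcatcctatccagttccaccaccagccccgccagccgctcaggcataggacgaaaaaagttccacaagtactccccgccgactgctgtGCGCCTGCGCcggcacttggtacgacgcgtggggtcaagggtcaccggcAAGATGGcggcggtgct

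A second set contrasts the widely expressed Cox7a2 (chr9:79759804-79760103, minus strand) with the heart and skeletal muscle isoform Cox7a1 (chr7:30183921-30184220, plus strand) and with the testis isoform Cox6b2 (chr7:4753045-4753344, minus strand), which was added after its values were seen. Here capitals mark letters of sites for Klf and Sp factors on either strand (CACCC, the GC box GGGCGG, and the longer words GGGTGTGG and GGGCGTGG). This choice was made after the NRF1 and ETS letters had shown no match in Cox7a1 and Cox7a2.
Cox7a2: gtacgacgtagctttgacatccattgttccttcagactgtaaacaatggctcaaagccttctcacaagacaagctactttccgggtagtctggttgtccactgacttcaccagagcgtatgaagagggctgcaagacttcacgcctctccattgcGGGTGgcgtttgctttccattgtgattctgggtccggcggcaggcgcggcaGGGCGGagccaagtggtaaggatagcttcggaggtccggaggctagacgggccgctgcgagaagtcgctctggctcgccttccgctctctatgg
Cox7a1: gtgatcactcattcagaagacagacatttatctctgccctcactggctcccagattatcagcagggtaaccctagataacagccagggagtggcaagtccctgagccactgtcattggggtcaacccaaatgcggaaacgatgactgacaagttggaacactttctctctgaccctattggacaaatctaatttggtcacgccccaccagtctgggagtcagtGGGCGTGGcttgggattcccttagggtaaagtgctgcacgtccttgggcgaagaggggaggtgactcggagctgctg
Cox6b2: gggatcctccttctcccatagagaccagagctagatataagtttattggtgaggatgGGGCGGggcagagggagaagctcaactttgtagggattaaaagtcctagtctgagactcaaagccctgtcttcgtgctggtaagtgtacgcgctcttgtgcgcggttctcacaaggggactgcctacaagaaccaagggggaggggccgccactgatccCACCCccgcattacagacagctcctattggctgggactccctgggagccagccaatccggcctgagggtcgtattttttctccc

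Of the 8 sets of letters searched, NRF1 letters stood in 14 of the 66 windows (21.2%, 95% Wilson interval 13.1 to 32.5%), against 6.38% of the 21262 windows of all protein-coding genes and 9.44% of those of genes with a start peak in the empty vector list. They belong to 13 genes, among them Sdha, Sdhd, Uqcrc1, Cox6a1 and Ndufb4, with 3 matches at Sdha and at Ndufb4. YY1 letters stood in 9 windows (13.6%, interval 7.34 to 23.9%, against 6.24% of all windows and 6.71% of those with a start peak). In 8 of these 9 they read in the sense direction at bases 11 to 39 after the start, while 24.7% of the matches in all windows lay after the start in that direction. ETS letters were in 13 windows (19.7%, against 11.6% of all windows and 16.5% of those with a start peak), within counting error of the latter.

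None of the letters of Klf-type sites was more frequent than elsewhere beyond counting error, and CACCC was less frequent. CACCC stood in 30 of 66 windows (45.5%, interval 34.0 to 57.4%), against 59.5% of all windows and 63.9% of those with a start peak. The GC box GGGCGG was in 47.0% (interval 35.4 to 58.8%), against 46.2% and 62.6%, so it was less frequent only than in windows with a start peak. The longer words GGGTGTGG and GGGCGTGG were in 3 and 5 windows (4.55 and 7.58%, against 3.63 and 6.97% of all windows and 3.60 and 9.46% of those with a start peak). A GGGTGTGG match always holds a CACCC match on the opposite strand, so these counts overlap, while GGGCGTGG holds neither CACCC nor the GC box. The 8 genes with 1 of the longer words include Cox7a1, with GGGCGTGG at base −27 from the start, and Cycs, with GGGTGTGG on the opposite strand at base −235. TATAAA was in 7 windows (10.6%, against 12.6% of all windows and 6.73% of those with a start peak). The windows had a median CpG ratio (observed over expected from the base composition) of 0.83, against 0.57 over all windows and 0.75 over those with a start peak. The lowest ratios were at Cox8b (0.115), Cox7a1 (0.33), Cox7b (0.37), Ndufb4b (0.40) and Cox6b2 (0.43).

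**Figure D1:**
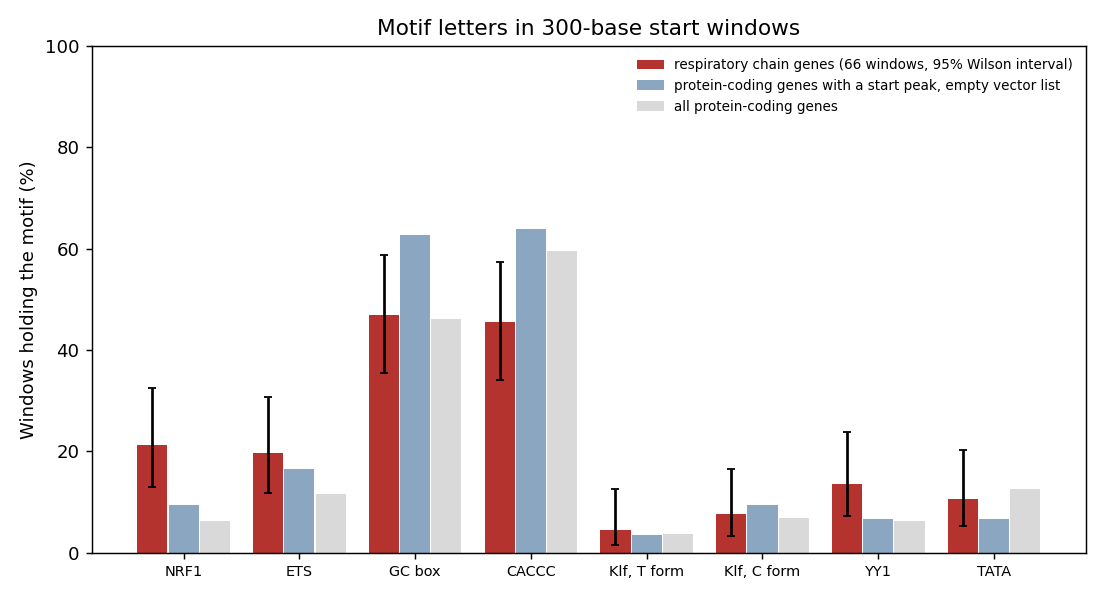
Share of 300-base start windows that hold each set of letters on either strand (vertical axis, percent), for respiratory chain genes (red, 66 windows, bars with 95% Wilson intervals), for protein-coding genes with a start peak in the empty vector list (blue), and for all protein-coding genes (grey). The 2 Klf words are GGGTGTGG (T form) and GGGCGTGG (C form). The NRF1 bar is at 21.2% against 6.38% of all windows, and the CACCC bar at 45.5% against 59.5%.

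Nearly all of these genes had an open start with both plasmids. Of the 64 genes with an annotated start, 60 (93.8%) had a peak over the start window with the empty vector and 61 (95.3%) with Klf4, beside 60.8% and 66.9% of the 17491 protein-coding genes with an entry. All 60 had a start peak in both lists, none of the 64 had one with the empty vector only (0.583% of all genes), and 1 had one with Klf4 only (6.71% of all genes). Over all 80 genes, 71 and 72 had a peak within 1 kb of a gene end, beside 65% and 71.9% of all genes, a measure added after seeing the data. The median log2 width ratio of these 60 start peaks, Klf4 over empty vector, was −0.03 (from −0.87 to 0.53), against 0.01 over all genes. The map of peaks by distance from the start shows a single block over the start of 60 genes, with a counterpart in the other list.

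**Figure D2:**
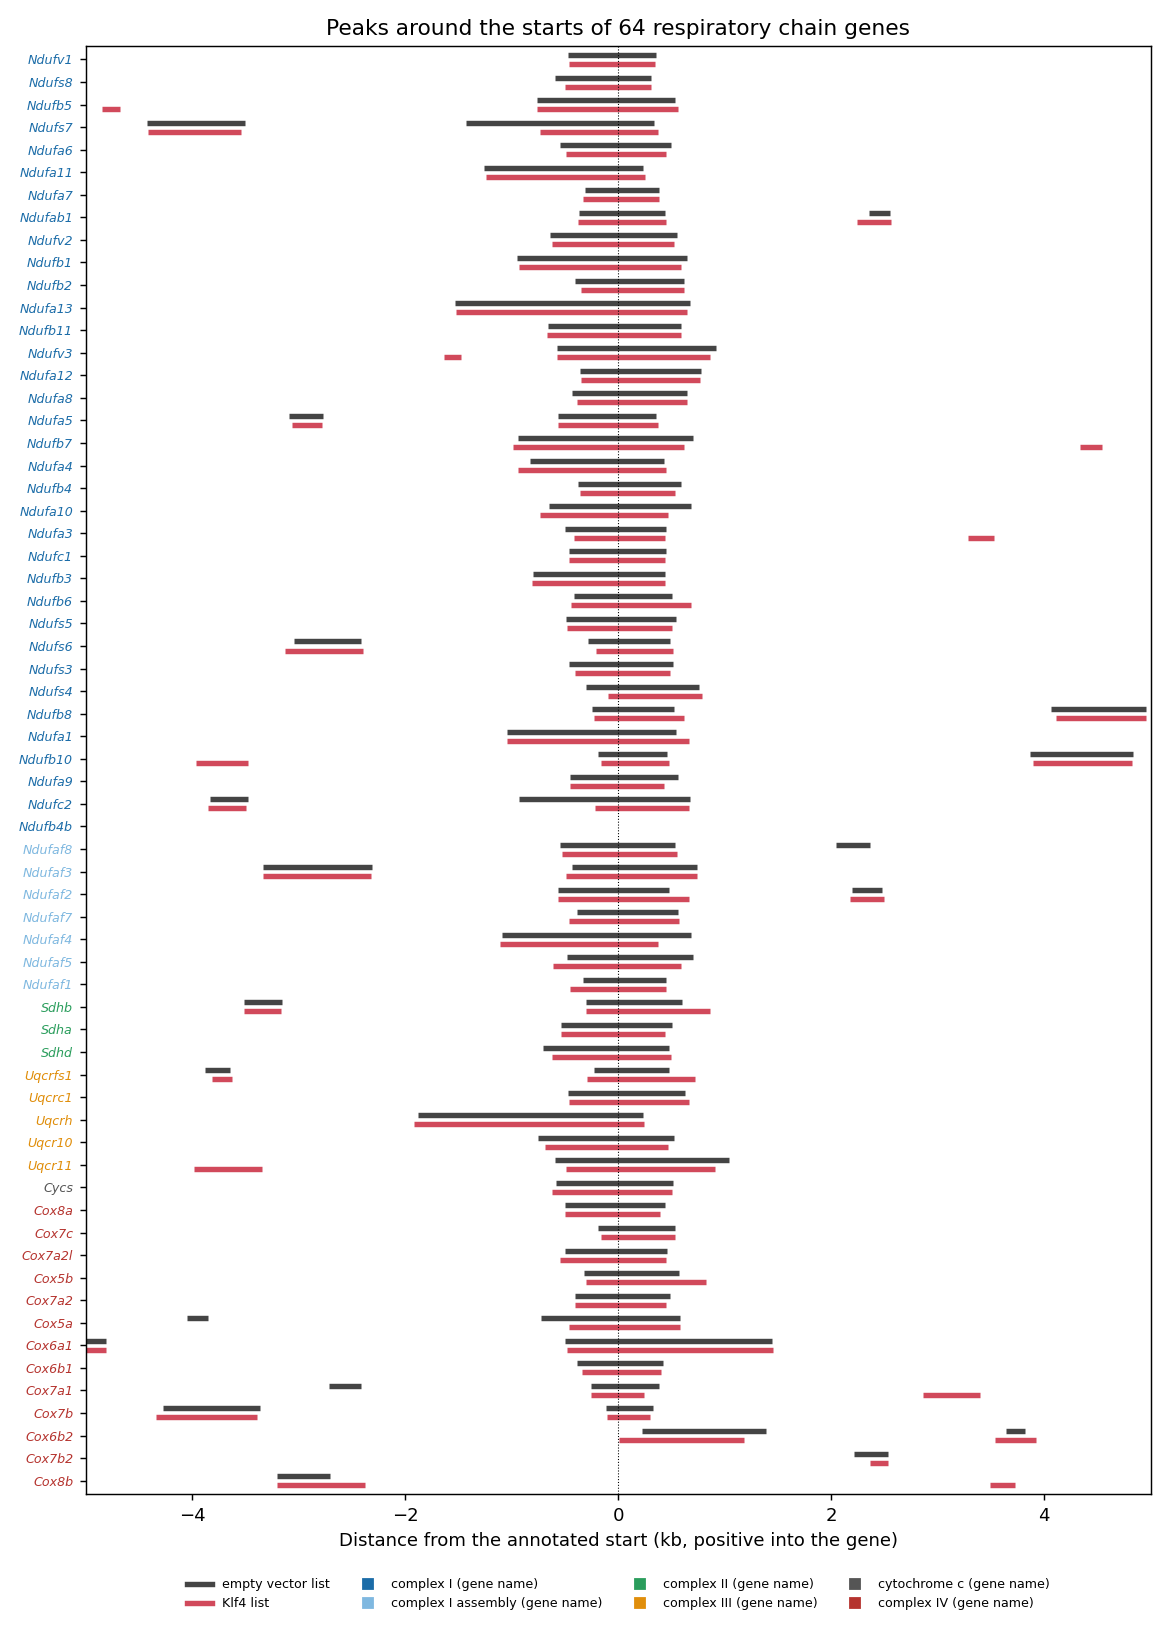
Peaks within 5 kb of the annotated start of 64 respiratory chain genes (horizontal axis, kb from the start, positive into the gene), 1 row for each gene, with empty vector peaks in grey above Klf4 peaks in red and gene names coloured by complex. Genes are ordered within a complex by the −log10 q of the empty vector start peak. Both lists have a block over the start in 60 rows, while Ndufb4b, Cox7b2 and Cox8b have none there and Cox6b2 has one with Klf4 only.

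By the median, the start peaks were also somewhat taller than the start peaks of all genes. The authors' fold enrichment, the signal of a peak over the background around it, had a median of 7.78 over the 60 start peaks of the empty vector list and 7.78 over the 61 of the Klf4 list, beside 6.63 and 6.15 for the start peaks of all genes. The median −log10 q was 101 and 85.7, beside 79.97 and 60.4. Ranked by −log10 q among all start peaks of the same list, the median place was percentile 60.7 and 65.7. Single genes ranged from percentile 13.7 to 95.2 with the empty vector and from 10.6 to 96.8 with Klf4. These are the authors' values for each peak and describe each list, since read depth is unknown and depth and background may differ between lists. Start peaks were narrower than those of all genes, with medians of 1041 and 1048 bp beside 1144 and 1159 bp. Within the genes, the 13 with NRF1 letters had a median −log10 q of 90.8 for the empty vector and 85.5 for Klf4, and the 47 without them 110.3 and 87.99. Their median fold enrichments went the other way, with 7.91 and 8.26 against 7.70 and 7.66.

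Another gene started within 1 kb in the divergent direction at 20 of the 64 genes (31.2%, interval 21.2 to 43.4%), beside 13.9% of all genes. A start peak that covers both starts cannot be assigned to either gene. Among them were Ndufb5 with the mitochondrial ribosomal protein gene Mrpl47, Sdhd with Timm8b, whose product helps import mitochondrial proteins, Ndufa7 with the ribosomal protein gene Rps28, and Sdha with Ccdc127.

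Complex I had a start peak at 34 of its 35 genes with an entry, in both lists, with fold enrichments from 3.13 to 9.76 with the empty vector and from 3.18 to 10.8 with Klf4. The strongest in the empty vector list was at Ndufv1, which encodes the subunit that binds NADH and flavin mononucleotide. Its peak lay at chr19:4012403-4013223 with the empty vector (−log10 q 246, fold enrichment 9.54) and chr19:4012410-4013217 with Klf4 (202, 9.27). Ndufs8, an iron-sulfur subunit encoded nearby on chromosome 19, had 241 with the empty vector and 209 with Klf4, above Ndufv1 in the Klf4 list. The weakest complex I start peak of the empty vector list was at Ndufc2, a small accessory subunit, at chr7:97399070-97400678 with the empty vector (−log10 q 23.8, width 1609 bp) and chr7:97399787-97400668 with Klf4 (21.99, 882 bp), so the Klf4 peak begins nearer to the start on the upstream side. In the Klf4 list Ndufa9 was weaker, with 19.5.

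The complex I gene without a start peak was Ndufb4b, which had no peak at all in the window in either list. It and Ndufb4c, which had 1 empty vector peak of 193 bp in its flank and none with Klf4, are short gene models of 471 and 485 bp that carry the name of Ndufb4, a gene of 6767 bp. Ndufb4 itself, named here for this comparison, had a start peak in both lists, with −log10 q 83.5 and 85.5 and fold enrichments of 9.65 and 10.8. The 7 assembly factors with an entry, proteins that help to build complex I without staying in it, had a start peak in both lists. Their −log10 q in the empty vector list went from 36.1 at Ndufaf1 to 227 at Ndufaf8, and the Klf4 values of these 2 genes were 31.0 and 193.

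Complex II is made of 4 nuclear-encoded proteins, and each of its genes had a strong peak at a gene end. Sdha, the flavoprotein that oxidises succinate, had a start peak with −log10 q 108 and fold enrichment 9.73 with the empty vector and 121 and 10.9 with Klf4. Sdhb, the iron-sulfur subunit, had the strongest empty vector start peak of the complex (−log10 q 119, fold enrichment 6.20) and 71.0 and 5.16 with Klf4, where the peak was wider (1160 against 899 bp). Sdhd, a membrane anchor, had the weakest of the 3 start peaks in the empty vector list, 103, and had 90.4 in the Klf4 list, where Sdhb was weakest. Sdhc, the other anchor, has no entry, and its strongest peak, at the right end of the gene, had 86.5 and 70.7.

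All 5 complex III genes with an entry had a start peak in both lists. Uqcrfs1, the Rieske iron-sulfur protein, was strongest with the empty vector (−log10 q 154, fold enrichment 10.05, width 703 bp) and had 93.0, 7.66 and 1015 bp with Klf4. Uqcr11, a small subunit, was weakest, with 42.8 and 25.6. Of the genes without an entry, Uqcrq, chosen after its values were seen, had a peak at the right end of the gene with −log10 q 242 with the empty vector and 229 with Klf4. Cycs, which encodes the electron carrier cytochrome c, had a single peak in each list, at chr6:50566054-50567156 (−log10 q 199, fold enrichment 9.24) and chr6:50566067-50567190 (166, 9.14).

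**Figure D3:**
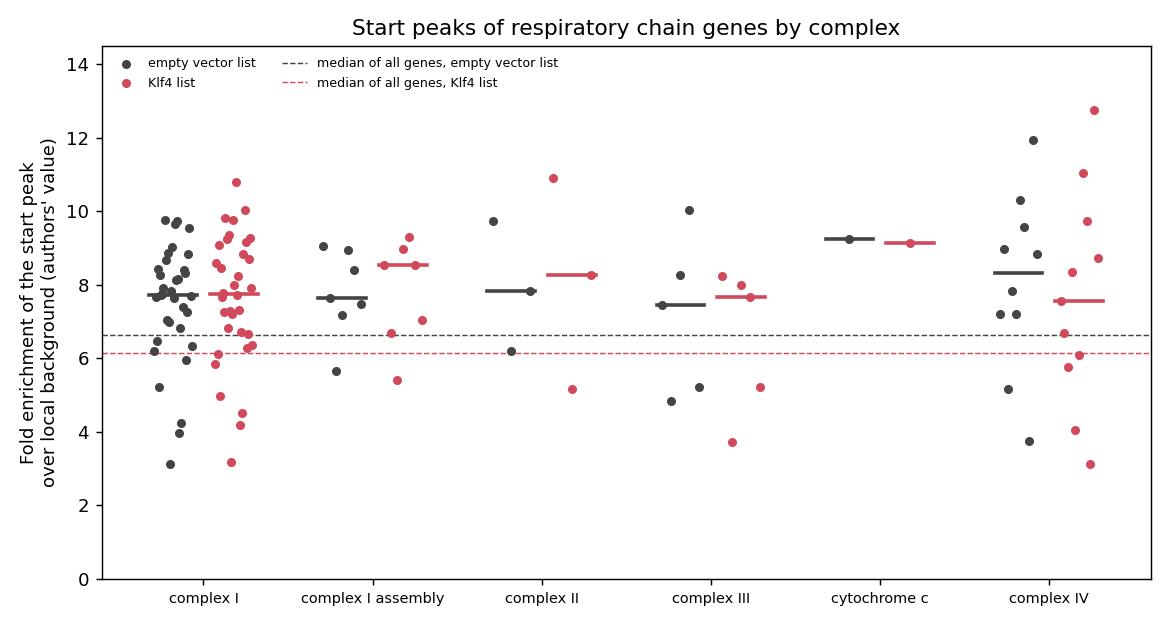
Fold enrichment over local background of the start peak, as the authors' peak caller gave it (vertical axis), for each respiratory chain gene by complex, with the empty vector list in grey and the Klf4 list in red. Solid bars are medians of a complex and dashed lines the medians of all protein-coding genes, 6.63 and 6.15. The medians of each complex lie above the dashed line of the same list, and single genes range from 3.12 to 12.8.

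Complex IV was the one complex in which more than 1 start had no peak. Of its 13 genes with an entry, a start peak was found at 10 in the empty vector list and at 11 in the Klf4 list. The strongest empty vector start peak was at Cox8a (−log10 q 218, and 179 with Klf4). The tallest, chosen after its values were seen, was at Cox7c, with fold enrichments of 11.9 and 12.8, the highest of the start peaks of this gene group in both lists. The weakest was at Cox7b, on the X chromosome, with −log10 q 19.3 and 10.3 and fold enrichments of 3.75 and 3.12.

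The isoforms known for restricted tissues were compared with their widely expressed counterparts by the strongest peak touching the gene body. The whole window was used first, and the measure was changed after the windows of Cox6a1 and Cox7b were seen to hold stronger peaks of neighbouring genes. Cox8b, the muscle isoform of Cox8a, had no peak touching its body in either list. Cox6a2, the muscle isoform of Cox6a1, and Cox8c, known from testis, had no body peak either, and Cox8c had none in the whole window. Cox7b2, a testis isoform, had 2 body peaks with the empty vector and 3 with Klf4, with −log10 q of at most 9.91 and 6.95 and none over the start. By contrast Cox6a1, Cox6b1, Cox7a2, Cox8a and Ndufa4 had start peaks with −log10 q of 56.8 to 218 with the empty vector and 44.9 to 179 with Klf4. Cox4i1, which has no entry, had a peak at the left end of the gene with 88.4 and 60.2. Cox7b, the counterpart of Cox7b2, did not follow this contrast, as its start peak was the weakest of all. Over the whole window, flank peaks gave Cox4i2 values of 15.97 and 19.7, Cox6a2 13.2 and 7.02 and Cox8b 13.5 and 8.37. The contrast was then smaller for Cox4i2 and Cox8b, whose counterparts did not change. It was larger for Cox6a2 and Cox7b2, since peaks of neighbouring genes raised Cox6a1 to 99.4 and 79.6 and Cox7b to 72.4 and 63.7.

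Not all isoforms of this kind lacked a peak. Cox7a1 had a start peak for both plasmids, at chr7:30183913-30184557 with the empty vector (−log10 q 39.1, fold enrichment 7.21) and chr7:30183921-30184411 with Klf4 (57.7, 6.08). It also had the only peak with a −log10 q of at least 20 found in 1 list in the windows of the 80 genes, a Klf4 peak at chr7:30187031-30187564 (−log10 q 31.1, fold enrichment 4.42), in the flank of the gene and 3127 bp from the start. An empty vector peak of 301 bp in the other flank (−log10 q 9.41) had no Klf4 counterpart. Ndufa4l2, a relative of Ndufa4 known as a hypoxia-induced gene, had body peaks with −log10 q of up to 74.8 and 70.5.

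Cox6b2 and Cox4i2 differed between the lists. At Cox6b2 the peak in the gene body was called at chr7:4751708-4752867 with the empty vector (−log10 q 10.9, fold enrichment 4.29) and at chr7:4751913-4753086 with Klf4 (29.98, 4.04). The Klf4 peak reaches the start window and the empty vector peak ends short of it, so Cox6b2 is the gene counted with a start peak in the Klf4 list only. When a peak within 1 kb of the start was counted instead, 61 genes had one in both lists. Cox4i2, the lung isoform of Cox4i1, had 4 body peaks in the Klf4 list and none in the empty vector list, the strongest at chr2:152753744-152754428 over the left end of the gene (−log10 q 8.30, fold enrichment 4.05). The 3 muscle markers (Ckm, Myh6 and Tnnt2) had 835 to 1136 bp covered in the empty vector list and 3796 to 4496 bp for Klf4, and their part in these differences was not tested.

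**Figure D4:**
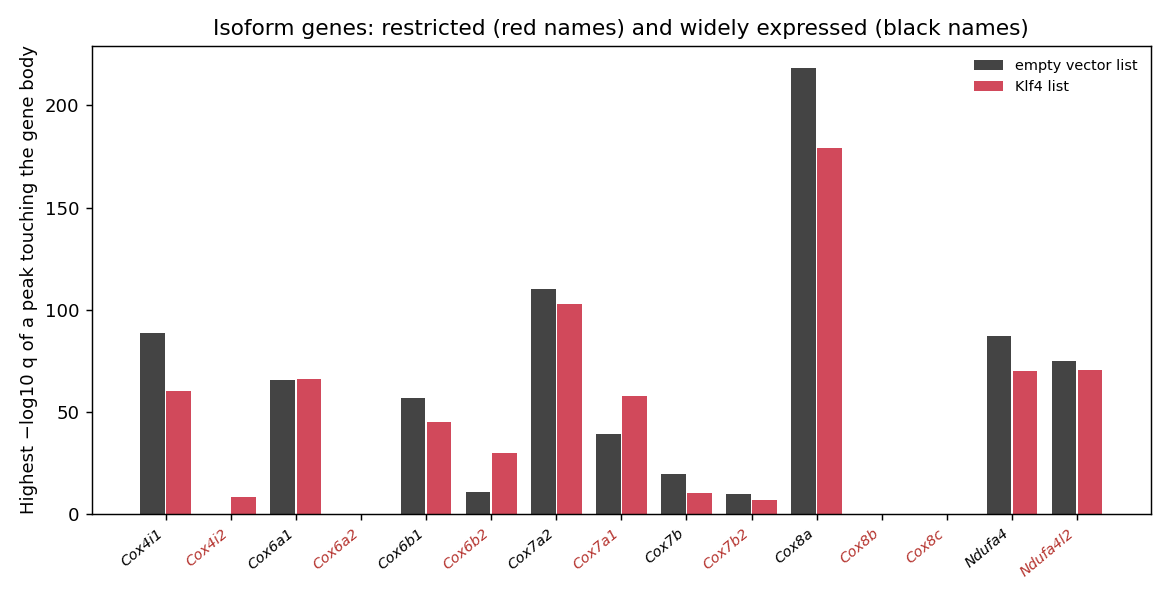
Highest −log10 q of a peak touching the gene body (vertical axis) at 7 widely expressed subunit genes (black names) and 8 isoforms known for restricted tissues (red names), in the empty vector list (grey) and the Klf4 list (red bars). No bar means no such peak. Cox6a2, Cox8b and Cox8c have none in either list and Cox4i2 none with the empty vector, while Cox7a1 and Ndufa4l2 have peaks in both.

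Peak coverage over each gene body and 5 kb on both sides had a median ratio near 1 between the plasmids. After adding 500 bp to each covered length, the log2 ratio of Klf4 to empty vector was taken, and its median over the 80 genes was 0.02 (from −0.53 to 0.93), beside 0.08 over all 21883 genes. It was above 0 at 45 genes, below 0 at 33 and exactly 0 at 2, while 58.6% of all genes were above and 24.3% below 0, and it was within 0.1 of 0 at 36 of the 80. The median covered length was 1587 bp (empty vector) and 1604 bp (Klf4). By complex the median ratio was 0.01 for complex I, 0.02 for the assembly factors, −0.04 for complex II, 0.01 for complex III and 0.05 for complex IV.

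More than 1.5-fold higher coverage with Klf4 was seen at 5 of the 80 genes (6.25%, interval 2.70 to 13.8%), beside 19.7% of all protein-coding genes, and more than 1.5-fold lower coverage at 0 of 80, beside 1.62%. The window of a longer gene is longer, and the genes had a median length of 7337 bp against 17170 bp for all genes. Both limits that follow were added after the gap between 6.25% and 19.7% had been seen. Among genes with a start peak in the empty vector list, 4 of 60 were over 1.5-fold higher (6.67%), beside 16.4% of all such genes, and 0 of 60 lower, beside 1.21%. Among those whose length also lay between the quartiles of the group, it was 4 of 34 (11.8%, interval 4.67 to 26.6%), beside 14.7%. These 34 genes hold the same number of calls as the 60, the interval is wide, and the part of gene length in the gap was not tested. The count of 5 and the genes in it changed with the settings. With 2 kb on both sides it was 4 (Cox4i2, Cox7a2l, Ndufa4l2 and Ndufs1), beside 19.3% of all genes, so Ndufb7, Ndufs8 and Uqcrc1 were not among them. It was 12 with 10 kb on both sides (beside 21.1% of all genes) and 8 with 100 bp added in place of 500 (beside 23.4%). It was 1 to 3 when weak or narrow peaks were left out, beside 5.12 to 18.8% of all genes, and of the 5 genes Cox7a2l alone was among those 1 to 3, when peaks under 500 bp were left out. The count of 0 lower genes held with 2 kb on both sides and was 1 to 3 under the other 6 settings, beside 1.51 to 4.44% of all genes. With the top 20000 peaks of each list the order of the counts turned. Then 3 genes were over 1.5-fold lower (Ndufa1, Ndufa4l2 and Uqcr11), beside 3.57% of all genes, and Cox6b2 alone was higher, beside 5.12%.

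The 4 of the 5 genes with an annotated start had a start peak in both lists. Their Klf4-only peaks thus lay away from the start, and Cox4i2 has no entry. Cox7a2l, which encodes a factor that joins complexes III and IV into supercomplexes, had 1133 bp covered for the empty vector and 2613 bp for Klf4 (log2 ratio 0.93). Its start peaks were alike (961 and 996 bp), and the difference came from Klf4-only peaks of 542 and 209 bp touching the gene, with −log10 q of 9.85 and 1.48, and from a body peak of 172 bp with the empty vector that was 866 bp with Klf4. The mean fold enrichment over the covered length, weighted by peak width, was 8.71 and 6.02.

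Cox4i2 had 1630 and 2897 bp (log2 ratio 0.67, mean fold enrichment 4.56 and 3.50). Ndufs8 had 1711 and 2882 bp (0.61, 7.32 and 4.42), with Klf4-only peaks of 992 and 221 bp in the flank, the second over a start of the neighbouring gene Tcirg1. Ndufb7, an accessory subunit, had 1645 and 2751 bp (0.60, 8.17 and 5.08), with 3 Klf4-only peaks of −log10 q 2.87 to 8.68 toward and beyond the far end of the gene. Uqcrc1, a core subunit of complex III, had 1635 and 2725 bp (0.60, 6.90 and 5.71), with Klf4-only peaks of 880 bp at the far end of the gene (−log10 q 18.7) and of 246 bp over the start of Col7a1 (1.92). The log2 ratio turned below 0 under 2 of the 7 alternative settings each at Cox4i2 (−0.12 and −0.11), Ndufs8 (−0.11 and −0.099) and Ndufb7 (−0.032 in both), which left out weak or narrow peaks or, at Ndufs8 in 1 of them, the outer flank. In all 5 the mean fold enrichment was the lower one in the Klf4 list, and at the 4 genes with an entry the Klf4-only peaks had fold enrichments below that of the Klf4 start peak. Low extra peaks pull such a mean down, so this follows in part from how the 5 were chosen. It is not particular to them, since the 42 Klf4-only peaks in the windows of the 80 genes had a median fold enrichment of 3.00. The lowest ratio of the group, chosen after its value was seen, was at Ndufa9, with 1498 and 886 bp (−0.53), where an empty vector peak of 482 bp in the flank (−log10 q 2.52) had no counterpart.

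**Figure D5:**
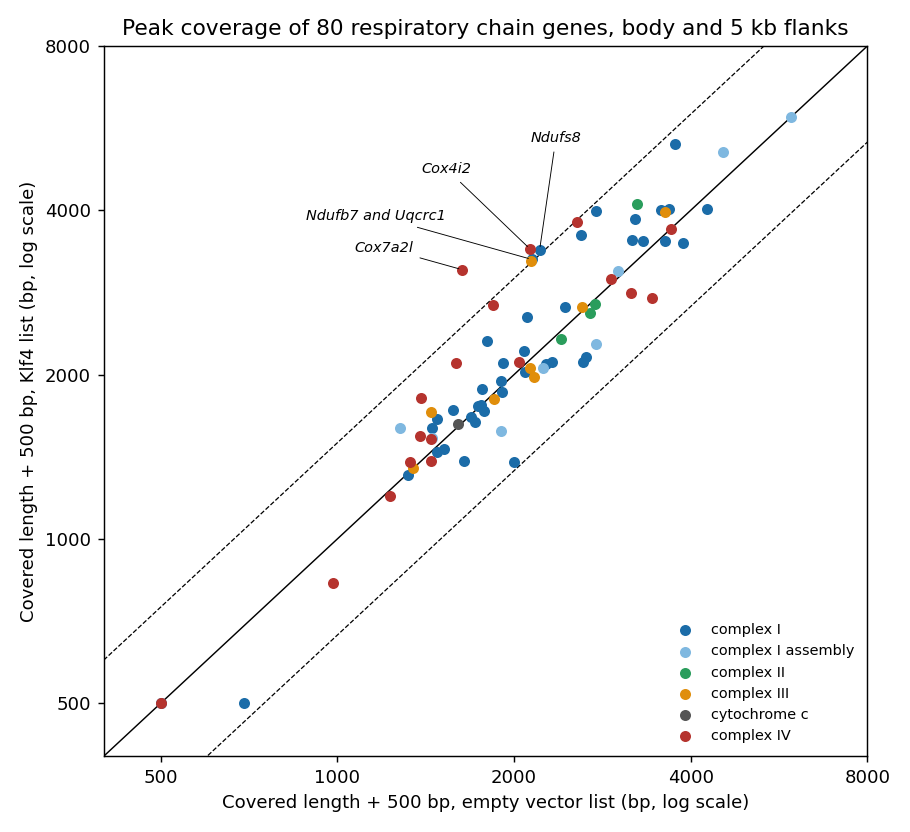
Covered length plus 500 bp of each of the 80 respiratory chain genes for the empty vector (horizontal axis, bp, log scale) and for Klf4 (vertical axis, bp, log scale), coloured by complex. The solid line marks equal coverage and the dashed lines 1.5-fold differences, and the 5 named genes lie above the upper dashed line with none below the lower one.

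Of the 64 genes with an entry, 60 had a start peak in both lists, so few starts could hold a peak found in 1 list only. None did, and the Klf4 start peak of Cox6b2 counted as found in both because it overlaps the empty vector body peak. The windows of the 80 genes held 160 empty vector peaks and 193 Klf4 peaks. Of the Klf4 peaks 42 (21.8%, interval 16.5 to 28.1%) had no overlapping empty vector peak, beside 36% of the 82658 Klf4 peaks in the windows of all genes. Of the empty vector peaks 13 (8.12%, interval 4.81 to 13.4%) had no overlapping Klf4 peak, beside 17.3%. A split by starts was added after these shares had been seen. Start peaks made up more of the windows of these genes, since 44% of their Klf4 peaks lay over a start of some gene, beside 14.7% in the windows of all genes. Among the 108 Klf4 peaks over no start, 38 were Klf4-only (35.2%, interval 26.8 to 44.6%), beside 40.4%. Among the 85 over a start, 4 were Klf4-only (4.71%, interval 1.85 to 11.5%), beside 10.8%, and these 4 lay over starts of neighbours, among them D830024N08Rik, Tcirg1 and Col7a1. The 42 peaks were spread over 30 genes, 25 touching a gene body and 17 in a flank. Their median width was 299.5 bp and their median −log10 q 4.85, while Klf4 peaks with a counterpart had medians of 932 bp and 48.8. Of the 80 empty vector peaks over no start 12 were empty-vector-only (15%), beside 20.6%, and of the 80 over a start 1 (1.25%), beside 1.08%. The 13 empty-vector-only peaks were at 13 genes, with medians of 213 bp and 3.42.

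The other genes of oxidative phosphorylation were listed by name. All 14 ATP synthase (complex V) genes with an entry, of 15 listed, had a start peak in both lists, beside 60.8% and 66.9% of all genes. None of the 15 was more than 1.5-fold higher or lower in covered length, beside 19.7% and 1.62% of all genes, and their median log2 ratio was 0.10, beside 0.08. The strongest was at Atp5g1, a gene for the rotating c ring, with −log10 q 387 and 346. Of 35 assembly factors of complexes I to IV, 31 have an entry and all 31 had a start peak in both lists, beside the same shares of all genes. Cox10, needed to make the haem of complex IV, was the only one of the 35 more than 1.5-fold higher, beside 19.7% of all genes, and none was lower. It had 1610 and 4313 bp (log2 ratio 1.19).

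Among 12 regulators of these genes, 3 were more than 1.5-fold higher and none lower, beside the 19.7% and 1.62% of all genes. Esrra, a nuclear receptor that drives respiratory genes, had 2183 and 4590 bp, and its start peak had −log10 q 344 and fold enrichment 9.09 in the empty vector list, and 128 and 4.78 with Klf4. Ppargc1b, a coactivator, had 9 peaks over 5851 bp and 18 peaks over 11130 bp. Polrmt, the mitochondrial RNA polymerase, had 2632 and 4606 bp. Nrf1 had 3274 and 2605 bp, and Tfam, the main packaging factor of mitochondrial DNA, 1208 and 1789 bp. Ppargc1a, the best known coactivator of mitochondrial biogenesis, had no peak over its start in either list but 6 and 5 peaks in its window. Gabpa shares its start region with the complex V gene Atp5j, so the same peaks were counted for both.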

How the data were processed

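Per the submitters' processing notes the tools were FastQC, Bowtie2, MACS2 and DiffBind and the build was mm10 (GRCm38), with no versions or settings. How the 4 libraries of a group were merged, and how reads were shifted, filtered and deduplicated, are not given in the sources used here. Each list, in broadPeak format, gives 1 fold enrichment (a ratio) and 1 −log10 p and −log10 q for each peak, as the authors deposited them, and a score, by the deposited values 10 times the −log10 q to within 1. Broad calling joins neighbouring stretches, so widths follow depth and threshold.

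Peaks on chromosomes 1 to 19, X and Y were used. Genes and starts came from RefSeq tables of GRCm38.p6. A peak counted over a start when it overlapped the 300-base window, and as found in both lists when at least 1 bp overlapped. An item of the gene group is in the counts but is not reported by name here. The start windows cover 17491 of the 21883 genes. Covered length is the part of the window under peaks. No test between groups was possible, and Wilson intervals (95%) over genes, windows or peaks cover counting error only.

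The group of genes, the other pathway and marker lists and the settings were chosen with earlier results of these data known. The tables of divergent starts, CpG content, motif position, NRF1 letters against peak strength and pseudogenes, the limits on gene length and on peaks over starts, the gene body measure of the isoforms and the choice of capitals were added after values had been seen. Named genes are the strongest and weakest start peak of each complex, genes without a start peak, genes past 1.5-fold, genes with a list-specific peak of −log10 q of at least 20, Sdha to Sdhd, Cycs, the isoform pairs, and those said to be added after their values were seen. Alternatives were thresholds on −log10 q of 5 and 20, the top 20000 peaks, peaks of at least 500 bp, flanks of 2 and 10 kb, 100 bp added, a 50% overlap, a 1 kb distance from the start and motif windows of 150 bases, and 1 kb from either gene end, the 2 gene subsets and the whole-window isoform values were added after seeing the data. On simulated lists, 200 of 200 planted coverage changes, 221 of 221 removed and 100 of 100 added peaks were recovered. The second list was an edited copy of the empty vector list, so this checks the code and not how reliable the peak differences are. The scripts ran on Python 3.11.15 (matplotlib 3.10.9, numpy 2.4.6, scipy 1.17.1, pandas 2.3.3).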

Additional observations from a re-analysis of the deposited data

How the results depend on the processing

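No paired analysis was possible because each group has a single merged list, and for the same reason no replicate could be left out. A count was taken to move past a factor of 1.5, a log2 ratio past 0.1, and a share when it leaves its 95% interval. The number of genes with a start peak (55 to 61 of 64 under all thresholds, and 71 and 72 of 80 by gene ends), the median covered length ratio (−0.0016 to 0.086) and the width ratio did not move.

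The number of genes over 1.5-fold higher with Klf4 was 12 with 10 kb flanks, 8 with 100 bp added, 3 at a −log10 q of at least 5, 2 at 20, 1 with the top 20000 peaks and 3 with peaks of at least 500 bp. Of all genes, 21.1, 23.4, 17.4, 6.47, 5.12 and 18.8% were over 1.5-fold higher in the same order. The number over 1.5-fold lower was 1, 2, 2, 2, 3 and 2, beside 1.51, 2.79, 1.97, 4.44, 3.57 and 3.09% of all genes. Cox4i2 changed sign at a −log10 q of at least 5 (−0.12) and with peaks of at least 500 bp (−0.11), Ndufb7 at 20 and with the top 20000 (−0.032 in both), and Ndufs8 with 2 kb flanks (−0.11) and the top 20000 (−0.099). Cox7a2l and Uqcrc1 stayed above 0 under all 7 settings, but with lowest ratios of 0.034 and 0.033. They were past 1.5-fold under 4 and 2 of the 7. At a −log10 q of at least 5 the 3 higher genes were Cox6b2, Ndufv3 and Sdhb, none of them among the 5. Among peaks with a −log10 q of at least 5, 2.92% of empty vector and 12.9% of Klf4 peaks were found in 1 list, beside 4.65% and 25.8% in the windows of all genes. In the 150 bases before the start, 30.3% of windows held the GC box, 25.8% CACCC, 1.52% GGGTGTGG, 0% YY1 and 4.55% TATAAA (38.04, 39.5, 2.28, 2.30 and 7.26% of all windows), and NRF1 and ETS did not move (15.2 and 13.6%, against 4.32 and 7.30% of all windows).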

Other observations

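The gene table also names 10 pseudogenes with symbols of this group on the main chromosomes, looked at after the other values had been seen. A peak touched 2 of them in the empty vector list, Ndufs6b and Ndufs5-ps, and 0 in the Klf4 list, beside 6.53 and 8.48% of all 10609 pseudogenes of the table on these chromosomes. With 10 pseudogenes, no comparison with those shares was made. With 5 kb on both sides, Ndufa12-ps had 2083 and 2056 bp covered, Uqcrh-ps1 1118 and 987 bp and Ndufs6b 1105 and 1683 bp, while Ndufab1-ps and Cox7c-ps1 had no peak in either list.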
